A study of Rattus norvegicus with 8 samples.

Results

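Genes that are used to recognise astrocytes, and astrocytes that react to injury, were followed across every cell class of the rat spinal cord and across 3 grades of contusion. The list held 9 genes, Gfap, Vim, Nes, Serpina3n, Aldoc, Aqp4, Gja1, Slc1a2 and Slc1a3. The genes were chosen by symbol, and 8 of the symbols matched exactly 1 row each of the 32623 genes in the count tables. Serpina3n is not analysed here. The genes were read as raw UMIs (unique molecular identifiers, 1 for each captured mRNA molecule) in 2 sets of cells. The first set held cells with at least 1 UMI of Aqp4 and at least 3 UMIs of Gfap, Gja1 and Slc1a2 together, called gated cells below. It held 160 of 55455 cells that passed quality control. The second set was every other cell, split into classes by clustering that left the 8 genes out.

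Astrocytes tile the cord, take up potassium, water and glutamate around synapses and vessels, and are joined to each other by gap junctions. After injury they enlarge, rebuild their cytoskeleton from intermediate filaments and form a border around the lesion. Gfap, Vim and Nes encode intermediate filament proteins. Vim and Nes are also made by progenitors, fibroblasts and vessels, and Vim by leukocytes. Aqp4 encodes the water channel of astrocyte endfeet and of ependyma, Gja1 the gap junction protein connexin 43, Slc1a2 and Slc1a3 the glutamate transporters GLT-1 and GLAST, and Aldoc the brain form of the glycolytic enzyme aldolase.

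The libraries came from female Wistar rats aged 8 weeks. The 4 groups held 2 libraries each, 1 cord per library. The sham group had a laminectomy alone, and the mild, moderate and severe groups had a laminectomy and a contusion of the thoracic cord by a 10 g weight dropped from rising heights. The cord segment around the operated site was taken 7 days later and dissociated with enzymes, so the cells counted are those that survived dissociation, and fewer cells of a class in the cord cannot be told apart from poorer recovery of that class. The tables held 3069 to 12674 barcodes per library with a total of 31482153 to 131045446 UMIs, and 555 of 68095 distinct barcodes occurred in more than 1 library.

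Several libraries stood apart from the rest before any of the 8 genes was considered. Sham library 1 had a median of 2745 UMIs per kept cell against 6152.5 to 10836 in the other 7, and 4779 of its 9190 kept cells were neutrophil-like. Sham library 2 was small, with 2336 kept cells, of which 1967 were macrophage/microglia-like. Both severe libraries differed from the other 6 in a few genes. Rps19, a ribosomal protein gene, stood at 1501 and 1080 CPM (UMIs of the gene per 1e6 UMIs of the cells summed) in the severe libraries and at 38.4 to 176 CPM in the others, and AABR07025010.1 stood at 4.91 and 2.16 CPM against 81.8 to 129. These 2 genes were chosen after their values were seen. How the severe libraries were handled and the severity of injury cannot be told apart, and each sham value below is given for both libraries because they were so unlike.

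Vim and Nes were the genes of the list that rose after injury in classes described below, and the 250 bases before their transcription start sites are shown for that reason. The sequences come from RefSeq on assembly GRCr8, which is not the assembly the counts were made on. The first lies at chr17:81577011-81577260 on the plus strand and the second at chr2:175736338-175736587 on the plus strand. Capitals mark a GC box (GGGCGG, here on the other strand as CCGCCC) and a TATA box (TATAAA).
Vim: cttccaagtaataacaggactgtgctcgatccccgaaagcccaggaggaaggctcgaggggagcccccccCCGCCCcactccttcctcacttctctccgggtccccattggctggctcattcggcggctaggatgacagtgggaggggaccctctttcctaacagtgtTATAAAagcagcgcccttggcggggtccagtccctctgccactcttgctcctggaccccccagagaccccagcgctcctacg
Nes: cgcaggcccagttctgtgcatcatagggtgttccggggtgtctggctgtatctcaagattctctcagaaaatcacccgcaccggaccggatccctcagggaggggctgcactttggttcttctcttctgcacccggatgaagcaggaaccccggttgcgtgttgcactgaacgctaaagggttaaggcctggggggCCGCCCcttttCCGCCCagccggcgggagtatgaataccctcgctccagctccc
The GC box of Vim began 180 bases before the start and its TATA box 82 bases before it, and the GC boxes of Nes began 54 and 43 bases before the start. On either strand of windows of this length, GGGCGG was found in 30.5% and TATAAA in 12.9% of 33469 entries. The motif TTCNNNGAA, bound by STAT factors, was in 7.67% of entries, in that of Serpina3n and in no entry of the other 8 genes, and TGANTCA, bound by AP-1, was in 6.34% of entries and in that of Gja1. The matches in capitals do not overlap one another.

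No cluster of the whole data set carried enough astrocyte markers to be named astrocyte-like, so these cells were followed by the gate alone. Of the gated cells, 120 of 160 lay in 1 unnamed cluster of 928 cells with Mt3 and Il33 among its leading genes (cluster 15), and 26 lay in the cluster named oligodendrocyte precursor-like. Of 20 astrocyte markers that the gate did not use, the summed level in gated cells was 663 to 8170 CPM across libraries. It was 93.5 to 227 CPM in the other cells of the same libraries. In oligodendrocyte precursor-like cells alone the same markers summed to 416 to 1078 CPM. The level was higher in gated cells in each library. In severe library 1 it was 663 CPM against 635 CPM, and in sham library 1 it was 1305 CPM against 1050 CPM. Mlc1, a membrane protein of astrocyte endfeet, gave 936 UMIs in the gated cells, Atp1b2, a sodium pump subunit, 498, and the transcription factor Sox9 315. Connexin 30 (Gjb6) gave 0 UMIs, and Slc7a10, Fgfr3 and Aldh1l1 gave 4, 7 and 22.

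Other cell types were visible within the gate. Of the 160 gated cells, 45 carried at least 3 of 10 ependymal markers, with 5 and 0 in the sham libraries, 6 and 1 in mild, 3 and 8 in moderate, and 6 and 16 in severe. Outside the gate 39 cells carried as many. Ependymal markers summed to 3939 CPM in the gated cells of sham library 1 and to 70.6 to 748 CPM in those of the other 7 libraries. Neutrophil markers summed to 25918 CPM in the gated cells of sham library 1 and to 18 to 314 CPM elsewhere, and macrophage and microglial markers to 14410 CPM in those of sham library 2 against 616 to 6386 CPM elsewhere. Fibroblast markers summed to 2442 and 2682 CPM in the gated cells of the moderate libraries and to 79.2 to 234 CPM in those of the other 6, and oligodendrocyte markers to 7929 CPM in those of mild library 1 against 289 to 1204 CPM elsewhere. Oligodendrocyte precursor markers summed to 50.2 and 2708 CPM in the gated cells of the sham libraries and to 395 to 1801 CPM after injury. Neuron markers summed to 75.3 and 275 CPM in sham and to 577 to 2309 CPM after injury, and Stmn2 gave 1679 of their UMIs. In the other cells neuron markers summed to 13.7 to 152 CPM and ependymal markers to 8.46 to 121 CPM. Like the astrocyte markers, both were higher in gated cells in each library. Macrophage and microglial markers were lower in gated cells in each library. Pericyte and smooth muscle markers ran from 28.2 to 2437 CPM over the libraries, and from 19.4 to 528 CPM in the other cells. The part of these cell types in the levels below was not tested.

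The gate was crossed by few cells in any library. The sham libraries held 11 and 14 gated cells, the mild libraries 8 and 6, the moderate libraries 34 and 46 and the severe libraries 12 and 29. As a share of kept cells this was 0.12% and 0.599% in sham, 0.0979% and 0.0786% in mild, 0.339% and 0.716% in moderate and 0.323% and 0.364% in severe. The Wilson 95% interval ran from 0.0669% to 0.214% in sham library 1 and from 0.357% to 1.00% in sham library 2, so the sham libraries differed from each other by more than counting error, which is the only error such intervals cover. The mild shares lay below all the others, and the sham shares spanned those of the severe libraries.

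**Figure D1:**
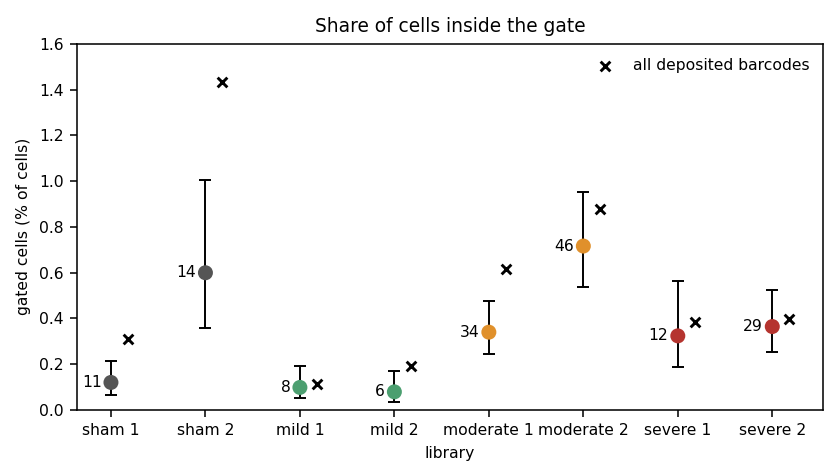
Share of cells inside the gate (percent of cells, vertical axis) for each of the 8 libraries, with the number of gated kept cells beside each point. Points are kept cells with Wilson 95% intervals and crosses are all deposited barcodes. The mild libraries are lowest at 0.0979% and 0.0786%, and the highest kept share is 0.716% in a moderate library.

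The share of gated cells had no detectable relation to injury grade over the 8 libraries (Spearman rho 0.24, two-sided exact permutation p = 0.586, adjusted p = 0.706 over the 2 relations) or to the drop height (Pearson r 0.16, exact permutation p = 0.706, adjusted p = 0.706). Without both severe libraries, which lie farthest from the median height, r was 0.27 (exact permutation p = 0.578, n = 6). The gate depends on depth, since gated cells had a median of 13912 UMIs and other cells 7939. With each cell thinned to 2000 UMIs and shallower cells left out, the share was 0.0817% and 0.406% in sham, 0.0173% and 0.0416% in mild, 0.227% and 0.112% in moderate, and 0.0818% in severe library 2, and in severe library 1 it was 0 of 2450 cells, which allows a share of up to 0.122%. The Spearman coefficient then turned to -0.24. In all deposited barcodes 317 of 68658 passed the gate, of which 70 exceeded the mitochondrial limit and 87 were removed for other reasons.

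Aqp4 set the edge of the gate more than the summed genes did. Exactly 1 UMI of Aqp4 was found in 67 of the 160 gated cells. By library these were 5 and 3 cells in sham, 2 and 1 in mild, 7 and 30 in moderate and 7 and 12 in severe. Of the kept cells with Aqp4, 15 had exactly 3 UMIs of the summed genes and were inside, 10 had 2 and were outside, and 121 in all had fewer than 3. By contrast 2908 cells had 3 or more UMIs of Gfap, Gja1 and Slc1a2 and none of Aqp4. Oligodendrocyte precursor-like cells were 50.2% of these, fibroblast-like cells 35.8% and cluster 15 was 5.12%. Gfap in their pooled UMIs was at 338 CPM, against 1979 CPM in the pooled gated cells.

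Summed over the libraries, most UMIs of 7 of the 8 genes lay outside the gate. Aqp4 was the exception, with 972 of 1119 UMIs (86.9%) in gated cells, a share that the gate itself helps to set. Gated cells held 25 of 98 UMIs of Slc1a2 (25.5%), 4408 of 24627 of Gfap (17.9%), 753 of 15326 of Gja1 (4.91%), 797 of 17551 of Nes (4.54%), 1129 of 34542 of Aldoc (3.27%), 45076 of 2323666 of Vim (1.94%) and 358 of 24566 of Slc1a3 (1.46%). The libraries differed, and in sham library 2 gated cells held 64.9% of Gfap, 75.2% of Gja1 and all 8 UMIs of Slc1a2, while in sham library 1 they held 35.8% of Aqp4. Outside the gate the genes had different main sources. Oligodendrocyte precursor-like cells held 59.2% of the Gfap UMIs, 60.6% of Nes and 55.1% of Slc1a2, oligodendrocyte-like cells 60.0% of Aldoc, fibroblast-like cells 80.9% of Gja1, and macrophage/microglia-like cells 80.3% of Slc1a3 and 38.5% of Vim.

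**Figure D2:**
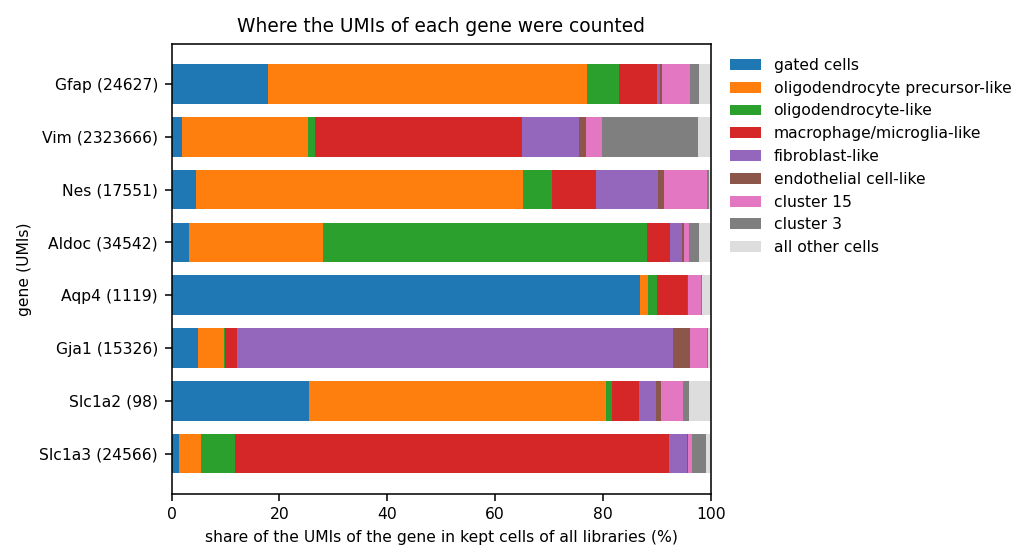
Share of the UMIs of each gene (percent of all UMIs of that gene in kept cells, horizontal axis) by the class of cell they were counted in, with the number of UMIs beside each gene name. Aqp4 UMIs are mostly in gated cells (86.9%), whereas Gja1 is mostly in fibroblast-like cells (80.9%) and Slc1a3 in macrophage/microglia-like cells (80.3%).

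Compared with all other cells of the same library, gated cells had higher Vim, Aldoc and Slc1a3, 3 genes that the gate did not use. Over the 6 libraries with at least 10 gated cells, Vim was higher by 2.31 ± 0.55 on the log2(CPM + 1) scale (SD, 6 of 6 libraries, two-sided exact sign-flip permutation p adjusted over 4 genes = 0.0417). Aldoc was higher by 3.81 ± 2.07 (6 of 6, exact permutation, adjusted p = 0.0417) and Slc1a3 by 2.0 ± 1.18 (6 of 6, exact permutation, adjusted p = 0.0417). Nes was higher by 2.69 ± 1.57 in 5 of 6 libraries and missed the threshold (exact permutation, adjusted p = 0.0625). The smallest unadjusted p that 6 libraries allow is 0.0313, and leaving out any 1 library takes Vim, Aldoc and Slc1a3 past 0.05 because the design can then no longer reach it.

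For the 4 genes in the gate the same difference is set by the rule and is given as a description. Gfap was at 2253 ± 2249 CPM in gated cells (SD, n = 6 libraries) and 32.2 ± 23.3 CPM in other cells, Aqp4 at 731 ± 1165 and 0.418 ± 0.227 CPM, Gja1 at 533 ± 480 and 39.6 ± 34.1 CPM, and Slc1a2 at 16.3 ± 24.8 and 0.142 ± 0.133 CPM. Gfap UMIs were found in 140 of the 160 gated cells, Gja1 in 120 and Slc1a2 in 15. Slc1a2, the main glutamate transporter of mature astrocytes, was thus nearly missing from these cells, with 0 UMIs in 3 of the 8 libraries.

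**Figure D3:**
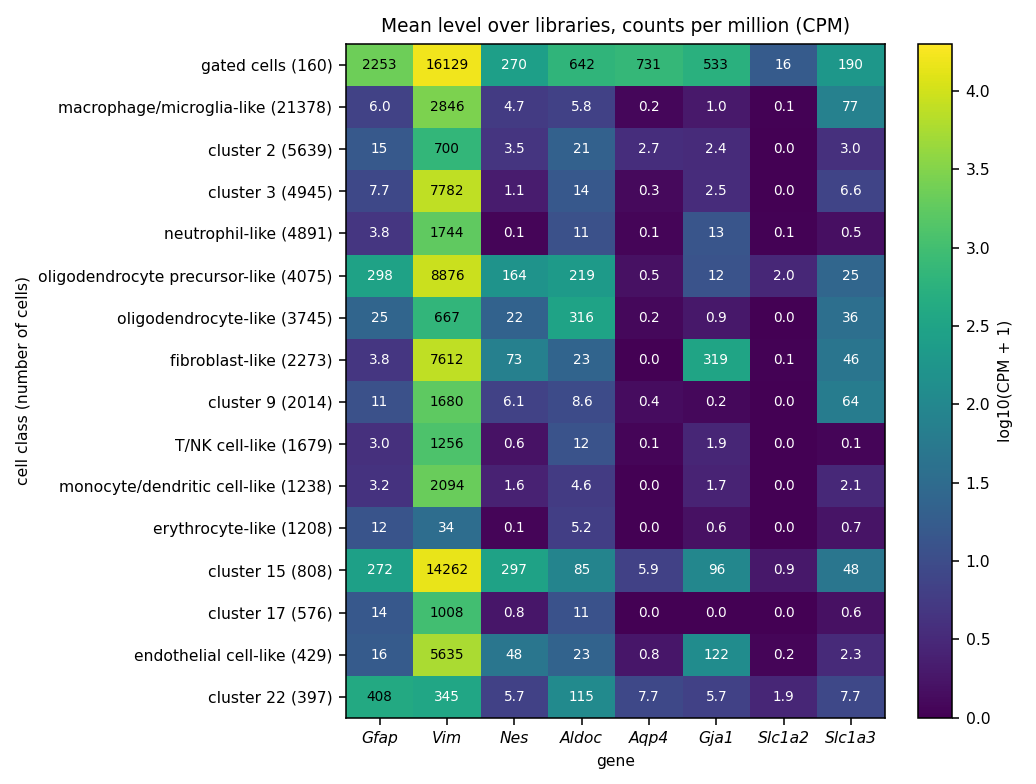
Mean level of each gene over libraries (CPM, printed in each cell and coloured as log10(CPM + 1)) for the gated cells and the other 15 classes, with the number of cells in each class. Gfap is highest in gated cells (2253 CPM) and next in cluster 22 (408 CPM), and Gja1 is high in gated cells (533 CPM) and fibroblast-like cells (319 CPM).

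Across the 16 classes each gene had a different order of levels, given here as mean ± SD of CPM over libraries with enough cells. These libraries differed between classes, and the mild libraries did not enter the gated means. Gfap was at 2253 ± 2249 CPM in gated cells, 298 ± 83.3 CPM in oligodendrocyte precursor-like cells and 272 ± 97.1 CPM in cluster 15, and the latter pair did not differ beyond their spread. Cluster 22 stood at 408 CPM, but 396 of its 397 cells came from sham library 1, so that level is that of 1 library. Nes was at 297 ± 102 CPM in cluster 15, 270 ± 263 CPM in gated cells and 164 ± 77.0 CPM in oligodendrocyte precursor-like cells, followed by fibroblast-like cells at 72.6 ± 46.6 CPM. Sham library 2 did not enter the mean of cluster 15. In the libraries that entered both means, neither cluster 15 nor the gated cells were always higher in Nes, so no order is read between them. Neighbours overlapped across libraries, while the fibroblast-like libraries (11.7 to 135 CPM) all lay below those of cluster 15 (139 to 412 CPM). Within each library that entered the means, Nes was higher in cluster 15 than in precursor-like cells, and higher there than in fibroblast-like cells.

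Vim was at 16129 ± 8811 CPM in gated cells, 14262 ± 3889 CPM in cluster 15, 8876 ± 4421 CPM in oligodendrocyte precursor-like cells and 7782 ± 1635 CPM in cluster 3, a cluster led by LOC100911104, Fn1 and RGD1559482. Neighbours in this order overlapped across libraries, and T/NK-like cells still had 1256 ± 558 CPM. Within each library, however, Vim was higher in cluster 15 than in oligodendrocyte precursor-like cells. Aldoc was at 642 ± 645 CPM in gated cells, 316 ± 187 CPM in oligodendrocyte-like cells and 219 ± 162 CPM in oligodendrocyte precursor-like cells, with 5.76 ± 2.77 CPM in macrophage/microglia-like cells. Slc1a3 was at 190 ± 86.3 CPM in gated cells and 76.9 ± 65.9 CPM in macrophage/microglia-like cells, which overlapped across libraries, and at 2.29 ± 0.94 CPM in endothelial-like cells. Within each library Slc1a3 was higher in gated cells than in macrophage/microglia-like cells. Gja1 was at 533 ± 480 CPM in gated cells, 319 ± 274 CPM in fibroblast-like cells and 122 ± 57.7 CPM in endothelial-like cells. Aqp4 was at 731 ± 1165 CPM in gated cells and at 7.66 CPM or lower in the mean of every other class.

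At matched depth, the share of cells with a UMI was highest in gated cells for Slc1a3, which the gate did not use. The share was also highest there for Gfap, but the gate selected on Gfap before thinning. Its share is therefore set in part by the rule and is given as a description. After thinning to 1000 UMIs per cell, Gfap was found in 53.8% of 156 gated cells, 19.3% of oligodendrocyte precursor-like cells and 12.6% of cells of cluster 15, against 0.507% of T/NK-like cells, which should lack it. Aldoc was found in 30.8% of gated cells, 29.1% of oligodendrocyte-like cells and 17.4% of oligodendrocyte precursor-like cells, against 1.90% of T/NK-like cells. The gated and oligodendrocyte-like shares of Aldoc were close, and no order is read between them. Slc1a3 was found in 14.1% of gated cells and 7.03% of macrophage/microglia-like cells, and in 0 of 1578 thinned T/NK-like cells, which allows up to 0.19%. Nes was found in 24.4% of gated cells, 15.9% of oligodendrocyte precursor-like cells and 13.4% of cells of cluster 15, whereas cluster 15 had the highest mean CPM, though over a different set of libraries. Vim was found in 98.6% of cells of cluster 3, 97.1% of cluster 15 and 94.9% of gated cells, whereas gated cells had the highest mean CPM, and no order is read from either gene. Vim was also found in 40.8% of thinned T/NK-like cells, so a UMI of Vim marks no class. Unthinned, 87.5% of gated cells had Gfap, 79.4% Aldoc and 60.6% Slc1a3. Median depth before thinning was 13912 UMIs in gated cells and 3006 UMIs in T/NK-like cells.

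The genes most like each of the 8 in their levels over the 16 classes were named by the highest Pearson correlation of mean log2(CPM + 1), as a description with no test, since the classes share libraries and depth. The nearest to Gfap was Slc39a12 (r 0.92), to Vim Anxa5 (0.91), to Nes Hbegf (0.96), to Aldoc Fgfrl1 (0.94), to Aqp4 Dnah12 (0.95), to Gja1 Hspb8 (0.95), to Slc1a2 Aqp4 (0.92) and to Slc1a3 AABR07051450.1 (0.97). Slc39a12 is a zinc transporter on the astrocyte marker list and Dnah12 encodes a dynein of motile cilia.

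Within gated cells the 2 filament genes outside the gate were lower in both sham libraries than in every injured library. Vim was at 7025 and 4584 CPM in sham, 31978 and 36391 CPM in mild, 27513 and 16227 CPM in moderate and 20290 and 21134 CPM in severe. Nes was at 50.2 and 7.85 CPM in sham, which was 4 and 1 UMIs, 233 and 584 CPM in mild, 731 and 362 CPM in moderate and 183 and 284 CPM in severe. The groups did not overlap for either gene, and the mild values rest on 8 and 6 cells. Neither difference passed the test across all genes. In edgeR's quasi-likelihood test with Benjamini-Hochberg adjustment, Vim differed from sham by 1.75 (SE 0.47, adjusted p = 0.272) in moderate and by 1.84 (SE 0.47, adjusted p = 0.247) in severe on the log2 scale, and Nes by 4.25 (SE 0.79, adjusted p = 0.118) and 3.20 (SE 0.80, adjusted p = 0.247). Over the 12 alternatives the adjusted p of Nes in moderate ran from 5.98e-09 to 0.447, and it was under 0.05 in 3 of them, with DESeq2, with no filter on low counts and with a stricter gate.

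Few genes of any kind were called in gated cells. Of 4992 genes tested in gated cells, 0% differed between moderate and sham (591 genes at an unadjusted p under 0.05, and 51 called by DESeq2), and 0.16% between severe and sham, 4 genes higher and 4 lower. Under scaling by library size alone the median of all genes shifted to 0.16 in moderate and to -0.10 in severe, and the members named here kept their direction. Of the 8 genes called in severe, Rps19 and Ybx1-ps3 were higher and AABR07025010.1 was lower, and Rps19 and AABR07025010.1 are genes in which both severe libraries stood apart over all their cells. Also called, with levels as CPM scaled by TMM (edgeR's correction for composition), were Stmn2, a neuronal microtubule regulator, at 1267 to 1574 CPM in the severe libraries and 43.6 to 67.9 CPM in sham (4.62 on the log2 scale, SE 0.46, edgeR adjusted p = 0.0391), and in the other direction Lcn2, a secreted lipocalin used as a sign of astrocyte reactivity, at 4.87 to 12.3 CPM against 322 to 393 CPM (fell by 5.16, SE 0.56, edgeR adjusted p = 0.0391), and Chi3l1, a chitinase-like protein, at 4.93 to 9.75 CPM against 204 to 272 CPM (fell by 5.09, SE 0.65, edgeR adjusted p = 0.0391). Lcn2 is also on the neutrophil list, whose level in sham library 1 is given above. Unscaled, Lcn2 was at 339 and 298 CPM in the sham libraries, and in sham library 2 it made up most of the neutrophil sum of 314 CPM, with 9 of the 11 neutrophil markers at 0. The severe call count fell to 0 on leaving out either severe or either moderate library.

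Aldoc and Slc1a3 had negative differences from sham in moderate and severe, and none passed the test. Aldoc in gated cells was at 477 and 1891 CPM in sham, 684 and 2167 CPM in mild, 744 and 159 CPM in moderate and 293 and 286 CPM in severe, so that both severe libraries lay below both sham libraries and the other groups overlapped sham. Its difference from sham was -1.52 (SE 0.82, edgeR adjusted p = 0.499) in moderate and -2.0 (SE 0.84, edgeR adjusted p = 0.335) in severe. Slc1a3 was at 263 and 330 CPM in sham, 261 and 285 CPM in mild, 138 and 112 CPM in moderate and 144 and 152 CPM in severe. The moderate and severe libraries lay below both sham libraries, but the differences of -1.42 (SE 0.35, edgeR adjusted p = 0.25) and -0.98 (SE 0.35, edgeR adjusted p = 0.286) did not pass.

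The gate genes are given without a test, because the gate selects on them. Gfap was at 1468 and 5941 CPM in sham, 1552 and 9536 CPM in mild, 4102 and 887 CPM in moderate and 399 and 722 CPM in severe. Sham, mild and moderate overlapped, and both severe libraries were lowest. Aqp4 was at 238 and 3084 CPM in sham, 254 and 599 CPM in mild, 575 and 216 CPM in moderate and 89.2 and 180 CPM in severe. Gja1 was at 753 and 1405 CPM in sham, 113 and 342 CPM in mild, 407 and 287 CPM in moderate and 229 and 117 CPM in severe, so both sham libraries lay above all injured ones. Sham library 2 was the highest library for Aqp4 and Gja1. Gated cells had medians of 4756 and 10013.5 UMIs in sham and 16876.5 and 9330.5 in mild. The medians were 11458.5 and 14996 UMIs in moderate and 19161.5 and 16016 in severe. The gate asks for a fixed number of UMIs, so the lowest CPM it admits is higher in shallower cells. The part of depth in these levels was not tested.

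**Figure D4:**
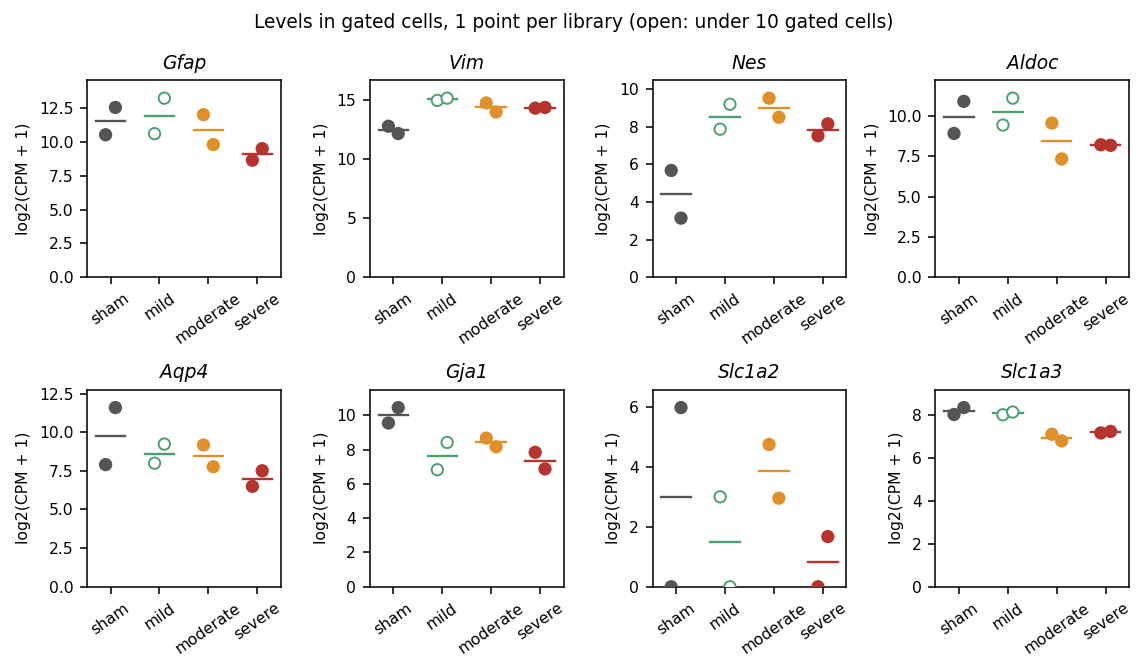
Levels of the 8 genes in gated cells by group, 1 point per library on the log2(CPM + 1) scale with a bar at the group mean, open points where a library has under 10 gated cells. Vim and Nes are lower in both sham libraries (7025 and 4584 CPM of Vim) than in every injured library. Gja1, a gene of the gate, is higher in both sham libraries (753 and 1405 CPM), and the depth of gated cells differs between libraries.

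With no filter on cells all 8 libraries could enter the test of gated cells, and mild was compared in this set, a choice made after the data were seen. Vim was then at 3717 and 5518 CPM in sham, 25556 and 22290 CPM in mild, 18705 and 18267 CPM in moderate and 19238 and 20023 CPM in severe. Nes was at 38.9 and 78.1 CPM in sham and 165 to 599 CPM in the injured libraries. In mild against sham, Vim differed by 2.30 (SE 0.38, edgeR adjusted p = 0.268) and Nes by 2.57 (SE 0.63, edgeR adjusted p = 0.280), with 0% of 7201 genes called (936 at an unadjusted p under 0.05, 43 by DESeq2). Severe against mild called 0.139% of genes, none of them a member and among them Rps19 and AABR07025010.1, in which the severe libraries stood apart, and Vim differed by -0.17 (SE 0.37, edgeR adjusted p = 0.890).

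Further lists of astrocyte genes were read in the filtered gated cells, by counts and medians, beside 0% of all genes called in moderate and 0.16% in severe. Of 18 genes of water, potassium and glutamate handling 6 could be tested, and 0 were called in either contrast, with a median difference of -1.62 in moderate and -1.98 in severe against medians over all genes of 0.02 and -0.02. Its most abundant members were Mlc1 at 546 ± 405 CPM, Atp1b2 at 391 ± 675 CPM, the bicarbonate transporter Slc4a4 at 252 ± 313 CPM and glutamine synthetase, Glul, at 197 ± 108 CPM (SD, n = 6). Sham was at 514 and 1295 CPM for Mlc1, 163 and 1766 for Atp1b2, 113 and 879 for Slc4a4 and 213 and 385 for Glul. In the same order the moderate libraries were at 598 and 135, 175 and 114, 238 and 83.0, and 188 and 214 CPM. The severe libraries were at 263 and 469, 76.5 and 52.8, 68.0 and 130, and 89.2 and 94.6 CPM. The part of sham library 2 in the medians was not tested. Of 20 injury-induced genes 11 were tested, 0 were higher and 1 was lower in severe (Lcn2), and none passed in moderate. The heat shock protein gene Hspb1 led this list at 2142 ± 719 CPM, and the protease inhibitor Timp1 followed at 1171 ± 531 CPM.

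Of 12 intermediate filament genes and their partners 3 were tested in gated cells, and 0 passed, with medians of 0.94 in moderate and -0.32 in severe. Lmna, a nuclear lamin, was at 151 and 31.4 CPM in sham and 350 to 789 CPM in the 6 injured libraries, with differences of 2.91 (SE 0.65, edgeR adjusted p = 0.215) and 2.15 (SE 0.65, edgeR adjusted p = 0.247). Of 12 genes described for the protective A2 state 4 were tested and 0 passed, with medians of 1.44 and 0.38. S100a10, an annexin partner, was at 1267 and 1295 CPM in sham and 1481 to 3797 CPM in the injured libraries. Of 16 transcription and signalling genes 9 were tested and 0 passed, with medians of -0.01 and -1.03.

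Outside the gate, Vim rose at each grade of injury in oligodendrocyte precursor-like cells, which form 1 cluster led by Il33, Ccnd1 and Calcb and hold more Gfap, Nes and Slc1a2 UMIs than any other class. Vim there was at 820 and 3416 CPM in sham, 12428 and 10959 CPM in mild, 8735 and 11323 CPM in moderate and 10323 and 13007 CPM in severe. All injured libraries lay above both sham libraries. The differences from sham were 2.46 (SE 0.55, edgeR adjusted p = 0.0270) in mild, 2.23 (SE 0.55, edgeR adjusted p = 0.0290) in moderate and 2.76 (SE 0.56, edgeR adjusted p = 0.0128) in severe. Calls were made for 6.7% of 12078 genes in mild, 8.38% in moderate and 11.1% in severe, where 655 were higher and 688 lower, or 304 and 1208 under scaling by library size alone, which shifted the median of all genes to -0.41.

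Depth, markers of other cell types and the class markers moved with these differences. Of 11 precursor markers 10 were detected in every library, at a summed 6992 and 5069 CPM in sham and 2137 to 4728 CPM in the injured libraries, and 20 astrocyte markers summed to 1050 and 1078 CPM in sham and 416 to 709 CPM after injury. The precursor-like cells of the sham libraries had medians of 5853 and 8147.5 UMIs, against 8485 to 21948 in the injured libraries. Neutrophil markers summed to 5955 CPM in the precursor-like cells of sham library 1 and to 0.745 to 213 CPM in those of the other 7. Fibroblast markers summed to 4489 CPM in the former and to 147 to 653 CPM in the latter. Oligodendrocyte markers summed to 6351 CPM and to 1487 to 4136 CPM in the same order. The sham classes held 79 and 76 cells. Their part in the result was not tested. The call for Vim in mild was lost without either mild library (adjusted p = 0.154 and 0.0823), in moderate without either moderate library or without mild library 2 (0.0505 to 0.111) and in severe without severe library 2 (adjusted p = 0.118), and leaving out a sham library ended none of the 3 edgeR calls, although without sham library 2 the differences were 4.04, 3.77 and 4.34.

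Nes in precursor-like cells was at 17.9 and 102 CPM in sham, 200 and 209 CPM in mild, 214 and 261 CPM in moderate and 132 and 172 CPM in severe. No injured library overlapped the sham libraries. The moderate difference of 1.95 passed (SE 0.51, edgeR adjusted p = 0.0352), and those of mild (1.74, SE 0.50, edgeR adjusted p = 0.0568) and severe (1.63, SE 0.51, edgeR adjusted p = 0.0573) did not. The moderate call was lost without mild library 2, either moderate library or either severe library (adjusted p 0.0508 to 0.127). Sham library 1 weighed on the size of the difference, since without sham library 2 it was 3.71, 3.89 and 3.60 in mild, moderate and severe.

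Aldoc and Slc1a3 each fell in 1 contrast in the same precursor-like cells. Aldoc was at 528 and 231 CPM in sham, 174 and 401 CPM in mild, 94.5 and 88.7 CPM in moderate and 112 and 122 CPM in severe. It fell by 2.0 in moderate (SE 0.41, edgeR adjusted p = 0.0135), while the mild difference was -0.36 (edgeR adjusted p = 0.596) and the severe one -1.34 (SE 0.40, edgeR adjusted p = 0.0505). Without sham library 1, without moderate library 1 or without moderate library 2 the moderate call was lost (adjusted p 0.0522 to 0.110). Slc1a3 was at 27.7 and 67.8 CPM in sham, 17.8 and 20.4 CPM in mild, 22.0 and 23.3 CPM in moderate and 11.9 and 8.41 CPM in severe. It fell by 2.02 in severe (SE 0.41, edgeR adjusted p = 0.0128), with -1.32 (edgeR adjusted p = 0.0516) in mild and -1.08 (edgeR adjusted p = 0.0846) in moderate. Without sham library 2 the severe difference was -1.03 (edgeR adjusted p = 0.109), and without severe library 2 it was -1.76 (edgeR adjusted p = 0.167).

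Gfap did not follow the other filament genes in precursor-like cells. It was at 233 and 397 CPM in sham, 384 and 383 CPM in mild, 199 and 306 CPM in moderate and 284 and 199 CPM in severe, so each injured group overlapped sham, and both mild libraries lay above the moderate and severe ones. Its differences from sham were 0.29, -0.32 and -0.09 (SE 0.32 each, edgeR adjusted p 0.566 to 0.877). Gja1 was at 6.52 and 10.1 CPM in sham, 5.06 and 7.63 CPM in mild, 20.4 and 24.3 CPM in moderate and 11.2 and 7.62 CPM in severe, and its moderate difference of 1.43 missed the threshold (SE 0.43, edgeR adjusted p = 0.0610).

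The wider lists in precursor-like cells set these genes among their families. Of 9 filament genes tested, 3 rose in mild, 4 in moderate and 3 in severe. Lmna, the cross-linker Plec and the lamin Lmnb1 rose in each of the 3, by 1.88, 1.73 and 2.21 in mild, 2.22, 2.23 and 2.93 in moderate and 2.42, 2.13 and 2.15 in severe on the log2 scale, and the neurofilament gene Nefm rose by 2.35 in moderate. The keratin gene Krt18 fell by 5.68 in mild and fell by 3.73 in moderate, and the filament gene Ina fell by 2.99 in severe. Of 11 genes of water, potassium and glutamate handling, 0 rose and 2, 3 and 3 fell in mild, moderate and severe, and Atp1b2 was among them each time (-1.59, -1.58 and -1.66). Nefm, Krt18 and Ina were picked after their values were seen, and these counts stand beside 6.7%, 8.38% and 11.1% of all genes called in either direction.

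Oligodendrocyte-like cells, 1 cluster with Tf and Mbp among its leading genes, had low Vim in both sham libraries and in 1 severe library. Vim was at 73.9 and 76.8 CPM in sham, 888 and 873 CPM in mild, 891 and 1505 CPM in moderate, and 86.7 and 946 CPM in severe. The sham libraries held 1227 and 38 such cells, and the value of sham library 2 was 33 UMIs. The differences of 3.56 in mild (SE 0.81, edgeR adjusted p = 0.0303) and 3.8 in moderate (SE 0.82, edgeR adjusted p = 0.0345) passed, and that of 3.03 in severe did not (SE 0.79, edgeR adjusted p = 0.0886). The calls stood among 7.58% of 9744 genes in mild, 4.05% in moderate and 1.1% in severe. In moderate 267 were higher and 128 lower, or 235 and 189 with DESeq2 and 358 and 76 by library size alone, and in severe 59 and 48, or 169 and 83 with DESeq2 and 32 and 82 by library size alone, under which the medians of all genes were 0.18 and -0.34.

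Each of these oligodendrocyte calls for Vim was lost under a finer clustering (edgeR adjusted p = 0.0768 in mild and 0.0854 in moderate), and without sham library 1 or either mild library (0.0578 to 0.162), and in moderate also without sham library 2 or moderate library 2 (0.0535 and 0.183). Without severe library 1 the severe difference was 3.93 and passed (edgeR adjusted p = 0.00131). Nes was at 8.87 and 2.33 CPM in sham, 19.5 and 26.4 CPM in mild, 30.4 and 62.1 CPM in moderate and 5.78 and 17.6 CPM in severe. The value of sham library 2 was 1 UMI in 38 cells, and that of severe library 1 was 6 UMIs. Nes rose by 2.39 in moderate (SE 0.51, edgeR adjusted p = 0.0335), and the call was lost under the finer clustering and without sham library 1, either mild library or moderate library 2 (0.0569 to 0.243). Aldoc was at 667 and 230 CPM in sham, 331 and 531 CPM in mild, 197 and 135 CPM in moderate and 191 and 248 CPM in severe. Its moderate difference was -1.62 (SE 0.43, edgeR adjusted p = 0.0633). Neutrophil markers were at 4547 CPM in the oligodendrocyte-like cells of sham library 1, and at 2.33 to 146 CPM in those of the other libraries, and their part was not tested.

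Macrophage/microglia-like cells had higher Vim in every injured library than in either sham library. Vim was at 1125 and 498 CPM in sham, 2577 and 3280 CPM in mild, 2918 and 4217 CPM in moderate and 4397 and 3756 CPM in severe. It rose by 1.94 in mild (SE 0.36, edgeR adjusted p = 0.0404), by 2.26 in moderate (SE 0.37, edgeR adjusted p = 0.0186) and by 2.87 in severe (SE 0.38, edgeR adjusted p = 0.00448). Background calls were 2.87% of 12703 genes in mild, 5.05% in moderate, where 417 were higher and 224 lower (870 and 709 with DESeq2), and 13.9% in severe, where 973 were higher and 791 lower (588 and 2510 by library size alone, with the median of all genes at -0.60). The severe call held in all 14 alternatives and the moderate one in 13, being lost without moderate library 2 (adjusted p = 0.111). The mild call was lost in 8 of 14, among them every setting without a mild, moderate or severe library (adjusted p 0.0661 to 0.288) and scaling by library size alone (adjusted p = 0.0555).

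The macrophage/microglia-like class was made of different clusters in the groups. Most such cells of the sham libraries lay in cluster 10, which has Cst3 and Tmem176b among its leading genes, with 193 and 1439 cells. Those of mild lay mainly in cluster 0, led by C1qb, and cluster 7, led by Mki67 and with Top2a, both genes of dividing cells, those of moderate in cluster 0 and cluster 1, led by Apoc1, Apoe and Spp1, and those of severe in cluster 8, led by Cxcl1, Ftl1 and Dusp2, with 865 and 2023 cells, and in cluster 12, led by Ccl4. Cluster 3, which is outside this class, was left unnamed, and macrophage/microglia was its best-matched type with 7 of 15 markers. It held 2407 and 1685 cells of the mild libraries, with Vim at 7593 and 8046 CPM, and 2 to 421 cells of each other library. Under the finer clustering the macrophage/microglia-like class held 2753 and 4263 cells of the mild libraries, against 1686 and 2917. The effect of leaving out cluster 3 was not tested. Neutrophil markers summed to 4305 CPM in the macrophage/microglia-like class in sham library 1 and to 50.2 to 193 CPM in the other 7, and their part in the differences was not tested. Slc1a3 in the class was at 54.2 and 232 CPM in sham, 66.8 and 72.2 CPM in mild, 82.1 and 58.0 CPM in moderate and 22.5 and 27.9 CPM in severe. Only the severe libraries lay below both sham libraries, by -2.13 (SE 0.64, edgeR adjusted p = 0.0604), and the direction in mild and moderate turned without sham library 2 (0.59 and 0.64). Nes stayed at or below 9.93 CPM in every library of the class, and its severe difference was -1.75 (SE 0.52, edgeR adjusted p = 0.0589).

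**Figure D5:**
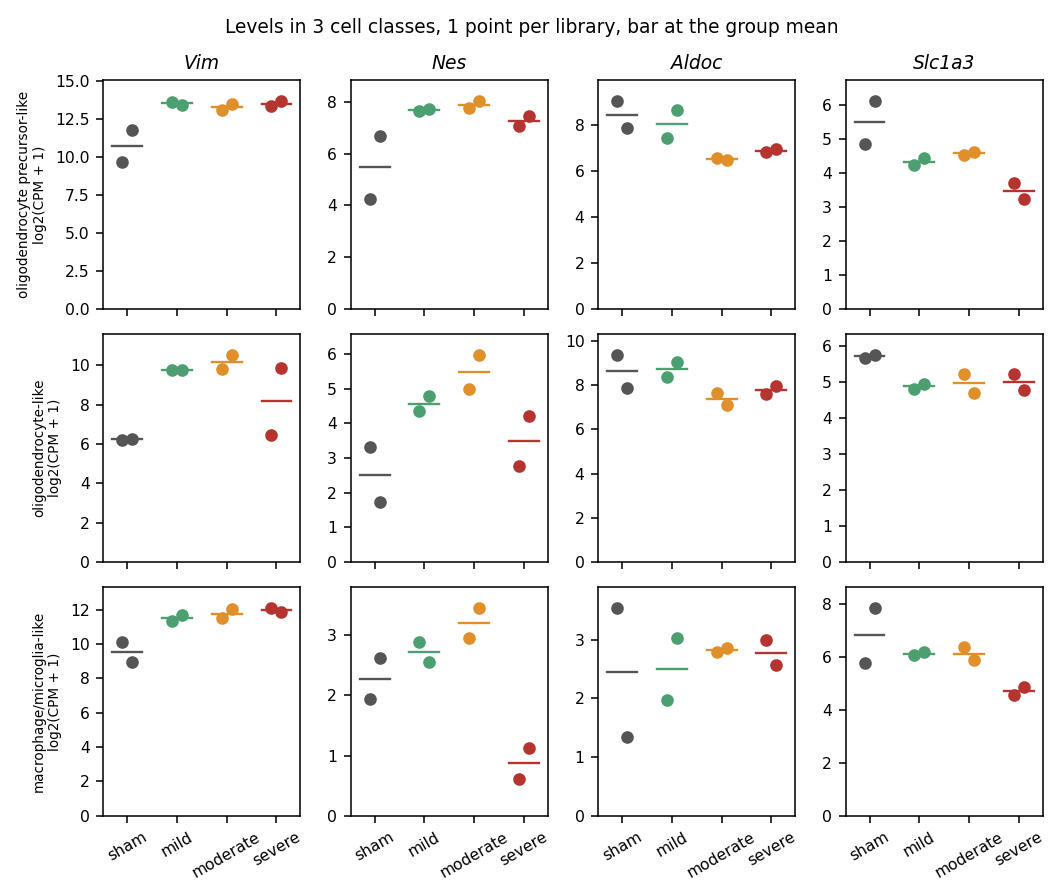
Levels of Vim, Nes, Aldoc and Slc1a3 (log2(CPM + 1)) in oligodendrocyte precursor-like, oligodendrocyte-like and macrophage/microglia-like cells by group, 1 point per library with a bar at the group mean. In precursor-like cells Vim is at 820 and 3416 CPM in sham and at 8735 CPM or higher in every injured library.

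Gja1 outside the gate was followed in fibroblast-like cells, its main source. It was at 206 and 0 CPM in sham, 179 and 113 CPM in mild, 758 and 688 CPM in moderate and 402 and 209 CPM in severe. Sham library 2 held 28 such cells, and no test was run in this class. Vim in the same cells was at 2718 and 1317 CPM in sham and 5923 to 14031 CPM in the injured libraries. Cluster 15, without its gated cells, gave Gfap values of 156 to 418 CPM in the 7 libraries other than sham library 2. Nes values in the same libraries were 139 to 412 CPM. Sham library 2 held 6 such cells, with 4 Gfap UMIs (451 CPM) and no Nes UMI.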

How the data were processed

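Droplet single-cell RNA-seq (10x Genomics 3' chemistry) was analysed for 8 libraries, 2 for each of sham, mild, moderate and severe injury (drop heights of 12.5, 25 and 50 mm). The deposited files hold raw UMI counts per gene and cell for filtered barcodes, made by the authors with Cell Ranger 5.0.1 per the file headers on Rnor_6.0 per the labels. They are not normalised, and counting strand and ambient RNA treatment are not given in the sources used here.

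Cells over 10% mitochondrial UMIs, the 7.7% with the highest Scrublet doublet score in each library, and cells beyond mean ± 2 SD of UMIs or genes were removed, leaving 55455 of 68658. Cells were clustered with Seurat 5.3.0 (4000 variable genes less the 8 members, 15 components, resolution 0.4) and named X-like by marker lists, so names may differ from those of the study. A named class needed leading markers of its own type. UMIs were summed per library and class and tested with edgeR 4.0.16 (R 4.3.3, TMM, filterByExpr, quasi-likelihood test, Benjamini-Hochberg over all genes tested, threshold 0.05), all groups in 1 fit, where a library held at least 10 cells of the class. DESeq2 1.42.0, library size scaling, no low-count filter, a stricter gate, a finer clustering (0.8) and leaving out each library were alternatives. Levels are CPM of summed UMIs. Shares and within-library differences were tested by exact permutation (SciPy 1.17.1), and adjusted over 4 genes rather than 5 because 1 symbol was not matched. The mild libraries held under 10 gated cells and entered no fit of filtered gated cells, and the planned test of an astrocyte-like cluster was not run because no cluster took that name. The edgeR step was checked on simulated counts.

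The genes, the gate and the lists were chosen with earlier results of these data known. Named genes were the members, up to 4 of each list by level in gated cells, the 3 genes with the nearest pattern, and up to 3 called genes each way in gated cells. Each library is 1 cord, so p-values measure the spread between cords. UMI totals are 31482153 to 131045446 per library, and intervals cover counting error only.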

Additional observations from a re-analysis of the deposited data

Results flagged for a closer look

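The severe minus sham difference of Nes had opposite signs in different cell classes, and in none of them did it pass edgeR's test (adjusted p = 0.247 in gated cells, 0.0573 in oligodendrocyte precursor-like cells and 0.0589 in macrophage/microglia-like cells). In gated cells the mean was higher in severe than in sham by 204 CPM and in oligodendrocyte precursor-like cells by 91.9 CPM, whereas in macrophage/microglia-like cells the severe minus sham difference was -3.12 CPM. Both severe libraries lay above both sham libraries in the first pair of classes and below both in the third. The difference between classes was not tested. The macrophage/microglia-like difference is between levels of 0.53 to 5.12 CPM, and the sham and severe cells of that class lay in different clusters.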

How the results depend on the processing

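Counts of calls moved most without the low-count filter and on leaving out 1 library, and levels within the gate rest on 6 to 46 cells per library. Of 780 recomputed differences of single genes, 662 kept their direction and side of the threshold, 40 lost a call, 59 gained one and 19 reversed. Of 240 recomputed summary values 106 kept theirs. The causes were not tested except where a setting leaves too few libraries.

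The relation of the gated share to grade had rho 0.24, and -0.24 after thinning, and ran from 0.11 to 0.64 without 1 library. Pearson r with height turned to -0.24 with no filter on cells, to -0.13 at a 20% mitochondrial limit, to -0.19 with the stricter gate and to -0.42 after thinning, and ran from -0.000201 to 0.47 without 1 library. Gated against other cells, Vim, Aldoc and Slc1a3 were higher by 2.15, 3.64 and 1.67 with at least 20 cells and by 2.69, 4.76 and 1.85 with the stricter gate, where too few libraries remain for a p under 0.05, Nes by 2.88 with no filter on cells, now past the threshold, and without 1 library they ran from 2.19 to 2.5 (Vim), 3.16 to 4.33 (Aldoc), 1.73 to 2.28 (Slc1a3) and 2.37 to 3.25 (Nes).

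In gated cells the moderate count was 51 with DESeq2, 382 with no low-count filter and 262 with the stricter gate, and 0 to 140 without 1 library, and the severe count 63, 317 and 265, 4 with no filter on cells, and 0 to 85. In all deposited barcodes the mild count was 43 with DESeq2 and 304 with no low-count filter (0 to 121 without 1 library), and severe against mild 69 and 332 (0 to 66). With no low-count filter the counts were 1701, 1772 and 2108 for mild, moderate and severe in precursor-like cells, 1944, 1196 and 877 in oligodendrocyte-like cells and 1948, 2118 and 3022 in macrophage/microglia-like cells. DESeq2 gave 1243 in mild precursor-like, 252 in severe oligodendrocyte-like and 1601 and 1579 in mild and moderate macrophage/microglia-like cells, library size scaling gave 3098 in severe macrophage/microglia-like cells, and resolution 0.8 gave 1316 in mild ones. Without 1 library the counts ran from 36 to 1727, 126 to 1485 and 43 to 2544 in precursor-like cells, 21 to 1340, 10 to 671 and 17 to 606 in oligodendrocyte-like cells and 0 to 1152, 37 to 1397 and 388 to 2244 in macrophage/microglia-like cells.

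Libraries of the same replicate number did not deviate together (correlations of -0.27 to 0.16), so the numbers were not taken as pairs. A replicate block moved the counts to 0 in severe gated cells, 6 for severe against mild in all barcodes, 432 and 877 for mild and severe in precursor-like cells, 371, 186 and 56 in oligodendrocyte-like cells and 28, 334 and 1122 in macrophage/microglia-like cells, and it turned Aldoc in mild oligodendrocyte-like cells to 0.017.

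The other reversals came without 1 library. In precursor-like cells the leave-out range of Gfap was -0.042 (without sham 1) to 0.92 in mild, -0.65 to 0.27 (without sham 2) in moderate and -0.44 to 0.53 (without sham 2, and 0.11 without severe 2) in severe, that of Aldoc in mild -1.03 to 0.32 (without sham 1, and 0.23 without mild 1) and that of Gja1 in mild -0.66 to 0.20 (without sham 2). In oligodendrocyte-like cells Aldoc ran from -0.58 to 0.84 in mild (without sham 1, and 0.21 without mild 1) and from -1.31 to 0.12 in severe (without sham 1), Gfap from -1.11 to 0.48 in moderate (without sham 1) and Nes from -0.16 (without severe 2) to 2.69 in severe. In macrophage/microglia-like cells Slc1a3 ran from -1.87 to 0.59 in mild and from -1.81 to 0.64 in moderate (both without sham 2). In gated cells of all barcodes Aldoc ran from -1.28 to 0.43 and Slc1a3 from -1.39 to 0.82 in mild (both without sham 2), and Nes in severe against mild from -0.94 to 0.60 (without mild 2, and 0.024 without severe 1). At least 20 gated cells left no sham library, so that fit was not run.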

Other observations

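Lmna, a nuclear lamin gene on the filament list, was called beside Vim in macrophage/microglia-like cells, where it rose by 3.28 in moderate (SE 0.50, edgeR adjusted p = 0.0147) and by 3.11 in severe (SE 0.50, edgeR adjusted p = 0.00886). Of 12 A2-type genes, 10 were tested in this class and 5 rose in severe, Clcf1 by 5.22, Emp1 by 3.97, Sphk1 by 3.28, S100a10 by 2.55 and Cd14 by 1.85, beside 13.9% of all genes called in either direction. The complement gene C3 fell in each grade, with differences of -3.26, -4.31 and -3.99. The clusters that make up this class differ between sham and injured libraries, and these genes were picked after their values were seen.

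In oligodendrocyte-like cells Gbp2, an interferon-induced GTPase gene of the injury-induced list, fell, with differences of -3.48 in moderate and -3.91 in severe, whereas in oligodendrocyte precursor-like cells it rose by 3.20 and 3.35. In mild oligodendrocyte-like cells its difference was -0.62 (SE 0.49, edgeR adjusted p = 0.435). Of all genes tested in oligodendrocyte-like cells, 4.05% were called in moderate and 1.1% in severe, in either direction. In precursor-like cells the shares were 8.38% and 11.1%. Gbp2 was picked after its values were seen, and the difference between the classes was not tested.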
